A study of Mus musculus with 18 samples.

Results

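A set of 9 genes from the output and nuclear-receptor loops of the circadian clock was followed in quadriceps myofibers of mice given prednisone: Dbp, Tef, Hlf, Nfil3, Nr1d1, Nr1d2, Rora, Ciart and Bhlhe41, out of 43430 genes in the count table. They were found by matching gene identifiers to symbols, and all 9 were among the 13596 genes that passed the filter on low counts and were tested. The genes were selected on this series with its contrasts between prednisone and vehicle already known, so the treatment values below are a description, with no test of a member. Comparisons between the sexes share libraries with those contrasts and are described in the same way. Deviations of single libraries from their own group mean were not part of that choice and were tested.

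The 18 libraries came from polyA RNA of C57BL/6 mice (C57BL/6J in the study's methods) and fell into 6 groups of 3: males and females given vehicle, weekly prednisone or daily prednisone. Prednisone is a synthetic glucocorticoid and was injected into young adult mice for about a month. The vehicle was DMSO, and weekly mice received it on the days without prednisone, so every mouse was injected each morning. In the study's methods the last weekly prednisone dose came days before sacrifice, while daily mice were dosed every day. Dosing regimen and time since the last dose therefore cannot be told apart here. Myofibers were what a strainer retained after collagenase digestion, so cells from outside the fiber can be present, and fewer cells of a type cannot be told apart from less RNA per cell. The study's methods place muscle force testing in the morning just ahead of sacrifice, but the hour at which each of these muscles was taken is not given in the sources used here, and its part in the results was not tested. Totals ran from 10506661 to 14686654 counts per library, and levels are given as CPM, a gene's counts scaled to the same library total. The 8 myofiber markers, such as Acta1 and Ckm, summed to between 93693 and 169730 CPM, and none was at 0 in any group.

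In the core clock loop, CLOCK or NPAS2 pairs with BMAL1 (encoded by Arntl) on E-box sequences and drives the Per and Cry genes, whose products then shut the pair down. The genes described here hang on that loop. DBP, TEF and HLF are PAR bZIP activators that bind D-box sequences, and NFIL3 is a repressor that competes for the same sites. REV-ERBα and REV-ERBβ (Nr1d1 and Nr1d2) repress through ROR elements, where RORα (Rora) activates. CIART and DEC2 (Bhlhe41) repress at E-boxes. Dbp is among the strongest rhythmic transcripts in muscle and many other tissues, and glucocorticoids are known as a timing signal for peripheral clocks.

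The promoters of the members were searched for these elements. Promoter windows of RefSeq (GRCm38.p6, the build of mm10) matched all 9 genes, with 10 windows in all, because Tef has more than 1 start. Each window was searched on both strands from 250 bases before the start to 50 bases after it. The E-box CACGTG lay in windows of 3 members, Ciart, Bhlhe41 and Tef, and in 7.15% of the 32851 windows in the table. The ROR element core TAGGTCA lay in 1 member, Nfil3, and in 2.61% of all windows. The D-box core TTANGTAA and the loose glucocorticoid receptor motif ACANNNTGT lay in no member window, against 2.32% and 6.85% of all windows. A match is a description of letters and does not show that a factor binds. The stretches around the matches are printed 5′ to 3′ on the strand of the gene, with the E-box or ROR core in capitals, because they hold the matches found in these 4 members. The Nfil3 stretch and the first Tef stretch lie before a RefSeq start but wholly inside an exon of the gene in GENCODE release 21, and the other 3 stretches hold no exon base. The Ciart stretch is chr3:95882252-95882384, the Bhlhe41 stretch chr6:145865559-145865613, the Nfil3 stretch chr13:52981040-52981069, and the Tef stretches chr15:81802534-81802563 and chr15:81811236-81811321. Ciart, Bhlhe41 and Nfil3 are on the minus strand and Tef is on the plus strand. The ROR core of Nfil3 reads on the opposite strand and so appears as TGACCTA.
Ciart: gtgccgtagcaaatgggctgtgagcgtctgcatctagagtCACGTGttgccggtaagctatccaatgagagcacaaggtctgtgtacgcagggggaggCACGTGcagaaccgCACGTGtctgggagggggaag
Bhlhe41: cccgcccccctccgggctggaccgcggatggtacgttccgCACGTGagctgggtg
Tef, first start: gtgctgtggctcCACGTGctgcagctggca
Tef, further start: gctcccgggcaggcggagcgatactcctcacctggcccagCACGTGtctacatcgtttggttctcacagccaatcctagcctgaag
Nfil3: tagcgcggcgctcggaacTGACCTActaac
Ciart held 3 E-boxes, which began 116, 58 and 44 bases before its start, and no other member held more than 1 in a window. The E-box of Bhlhe41 began 153 bases before the start and those of Tef 127 and 138 bases before theirs.

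Levels were compared between genes only per length, as CPM per kb of exon (the union of exons in GENCODE mouse release 21). Over the 6 vehicle libraries the median was highest for Nr1d1, at 42.6 CPM per kb, followed by Nfil3 at 33.8 and Tef at 26.7. Nr1d2 followed at 10.7 CPM per kb, Bhlhe41 at 4.48, Dbp at 3.93, Rora at 3.84, Ciart at 1.37 and Hlf at 0.959. Neighbors in this order overlapped in range except Tef with Nr1d2, Nr1d2 with Bhlhe41, and Rora with Ciart. The genes also differed in how far they spread. Across all 18 libraries the highest level of Dbp was 18.5-fold its lowest and that of Ciart 12.1-fold, while Tef covered only 1.95-fold.

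Reads of some members can belong to a neighbor, because the strand setting of the counting is not given in the sources used here. Nr1d1 (ENSMUSG00000020889, chr11:98767932-98775333, minus strand, mm10) overlaps Thra on the opposite strand, and the table held 30580 counts for Nr1d1 and 13551 for Thra. Dbp (ENSMUSG00000059824, chr7:45705088-45710155, plus strand) overlaps Sphk2 on the opposite strand, with 5937 counts for Dbp and 3739 for Sphk2. Ciart (ENSMUSG00000038550, chr3:95878503-95882251, minus strand) was the shallowest member, with 922 counts over all libraries and 13 in its lowest. It overlaps C920021L13Rik on the opposite strand, which held 108 counts. Gene models overlapping Tef and Rora held 19 and 1 counts.

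**Figure D1:**
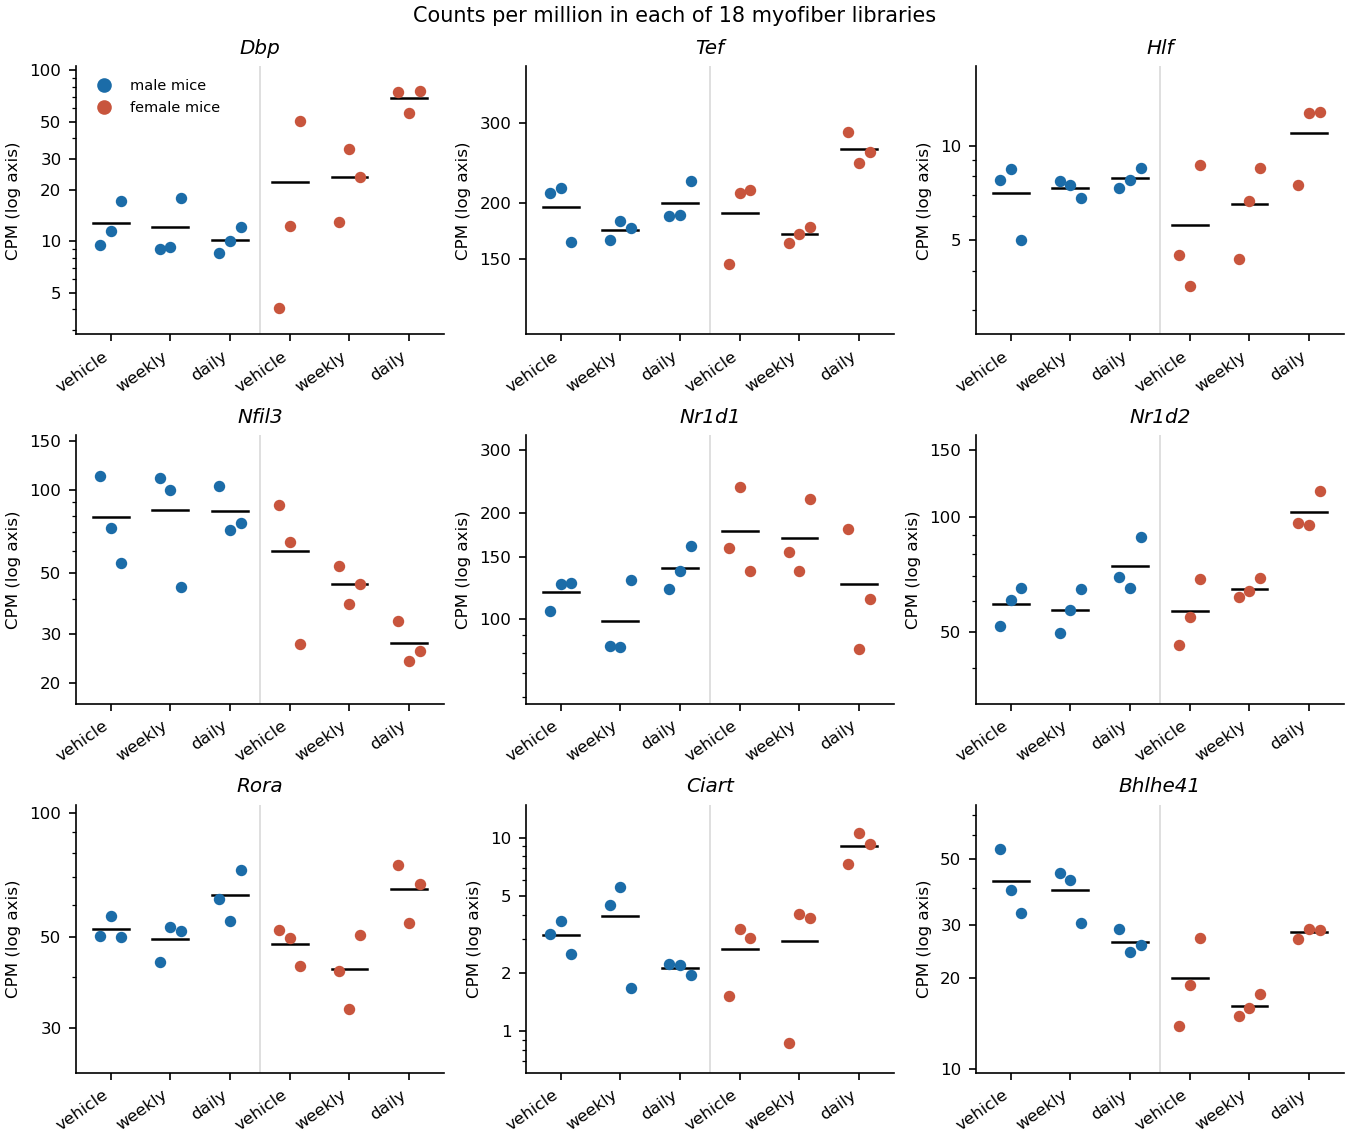
Level of each of the 9 genes in CPM (vertical log axis), with 1 point per library, males at left and females at right of each panel, and a black bar at the mean of each group of 3. The 3 daily females stood above every other library for Dbp and Ciart, at 56.4 to 75.2 and 7.30 to 10.6 CPM, and the 3 female vehicle libraries of Dbp were far apart, from 4.06 to 50.3 CPM.

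Among the D-box activators, Dbp stood out in daily females. Dbp, whose product is named after the D site of the albumin promoter that it binds, measured 74.0, 56.4 and 75.2 CPM in the 3 daily females, against 4.06, 12.2 and 50.3 CPM in vehicle females and 12.9, 34.7 and 23.7 CPM in weekly females. In males it measured 9.48, 11.4 and 17.2 CPM with vehicle, 8.97, 9.22 and 17.8 CPM with weekly prednisone, and 8.55, 9.997 and 12.04 CPM with daily prednisone. All 3 daily females were thus above all vehicle and weekly libraries of either sex, and the daily males lay within the range of the other males or just below it. The log2 fold change of daily against vehicle was 1.62 ± 0.63 (SE) in females and -0.32 ± 0.65 in males. The female value leaned on single libraries and ran from 1.12 to 3.11 when 1 library was left out. The highest, 3.11 ± 0.50, was without the third vehicle library, which had 50.3 CPM of Dbp.

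Tef, the PAR bZIP gene with the smallest spread here, measured 286, 244 and 259 CPM in daily females and 146, 210 and 213 CPM in vehicle females, so these groups did not overlap. Its log2 fold change was 0.47 ± 0.15 in females and 0.02 ± 0.15 in males, whose daily libraries at 186, 188 and 224 CPM overlapped the vehicle libraries at 163 to 215 CPM. Hlf, the least abundant PAR bZIP gene, had a mean of 11.01 ± 3.02 CPM (SD, n = 3) in daily females and 5.59 ± 2.72 CPM in vehicle females, with overlapping libraries and a log2 fold change of 0.97 ± 0.31. In males the Hlf means were 7.89 ± 0.58 CPM with daily prednisone and 7.08 ± 1.83 CPM with vehicle.

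Nfil3, the repressor at the same D-box sites, was lower in daily females. It measured 33.3, 24.0 and 25.9 CPM in daily females, 52.9, 38.5 and 45.6 CPM in weekly females, and 88.3, 64.4 and 27.7 CPM in vehicle females. The third vehicle female, which had the highest Dbp of its group, also had the lowest Nfil3, and this 1 library made the daily and vehicle groups overlap. The log2 fold change was -1.12 ± 0.39 in females and 0.07 ± 0.38 in males. Male libraries ran from 44.4 to 112 CPM over the 3 treatments, and the daily males at 103, 71.6 and 76.0 CPM lay within the vehicle range.

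Of the nuclear receptors, Nr1d2 and Rora had higher means in daily than in vehicle libraries of both sexes. Nr1d2, the gene of REV-ERBβ, measured 96.4, 95.3 and 117 CPM in daily females against 46.2, 54.8 and 68.8 CPM in vehicle females, with no overlap. In males it measured 69.8, 65.0 and 88.6 CPM with daily prednisone and 51.7, 60.7 and 65.3 CPM with vehicle, where only the lowest daily and the highest vehicle library crossed. The log2 fold change was 0.86 ± 0.16 in females, 0.33 ± 0.16 in males and 0.60 ± 0.12 as the mean of both sexes. Weekly libraries, at 61.6 to 69.0 CPM in females and 49.7 to 64.5 CPM in males, overlapped vehicle.

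Nr1d1, the gene of REV-ERBα, measured 180, 82.1 and 113 CPM in daily females and 159, 236 and 137 CPM in vehicle females, and the libraries overlapped, with a log2 fold change of -0.50 ± 0.28. In males it measured 122, 136 and 160 CPM with daily prednisone and 105, 126 and 126 CPM with vehicle, a log2 fold change of 0.23 ± 0.28. Rora, whose product activates at the sites where REV-ERB proteins repress, measured 75.0, 54.2 and 67.2 CPM in daily females and 51.9, 49.8 and 42.5 CPM in vehicle females, without overlap. In males it measured 61.9, 54.8 and 72.8 CPM with daily prednisone and 50.3, 56.2 and 50.1 CPM with vehicle. Only the lowest daily and the highest vehicle library crossed. The log2 fold change of Rora was 0.45 ± 0.16 in females, 0.27 ± 0.16 in males and 0.36 ± 0.11 as the mean of both sexes.

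Of the E-box repressors, Ciart had daily and vehicle libraries apart in both sexes and Bhlhe41 in males. Ciart, a repressor of CLOCK and BMAL1, measured 7.30, 10.6 and 9.24 CPM in daily females and 1.52, 3.37 and 3.04 CPM in vehicle females. In males it measured 2.225, 2.201 and 1.96 CPM with daily prednisone and 3.16, 3.73 and 2.499 CPM with vehicle. Daily and vehicle libraries did not overlap in either sex. Daily lay above vehicle in females (log2 fold change 1.78 ± 0.46) and below it in males (-0.55 ± 0.48). The vehicle and daily males held only 20 to 38 counts of Ciart each. Of all genes, 23.1% did not overlap in females and 33.4% in males. Weekly libraries spread from 0.871 to 4.02 CPM in females and from 1.67 to 5.57 CPM in males.

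Bhlhe41, the gene of the E-box repressor DEC2, measured 54.0, 39.3 and 32.9 CPM in vehicle males and 29.1, 24.5 and 25.8 CPM in daily males, with no overlap. In females it measured 13.9, 19.0 and 27.3 CPM with vehicle and 27.1, 29.3 and 29.0 CPM with daily prednisone, where the highest vehicle library crossed the lowest daily one. The log2 fold change was -0.67 ± 0.21 in males and 0.50 ± 0.22 in females, so that the sexes, far apart with vehicle, lay at 26.5 ± 2.37 and 28.5 ± 1.17 CPM with daily prednisone. With 1 library left out, the female value ran from 0.30 to 0.80, the highest (0.80 ± 0.21) without the third vehicle female.

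**Figure D2:**
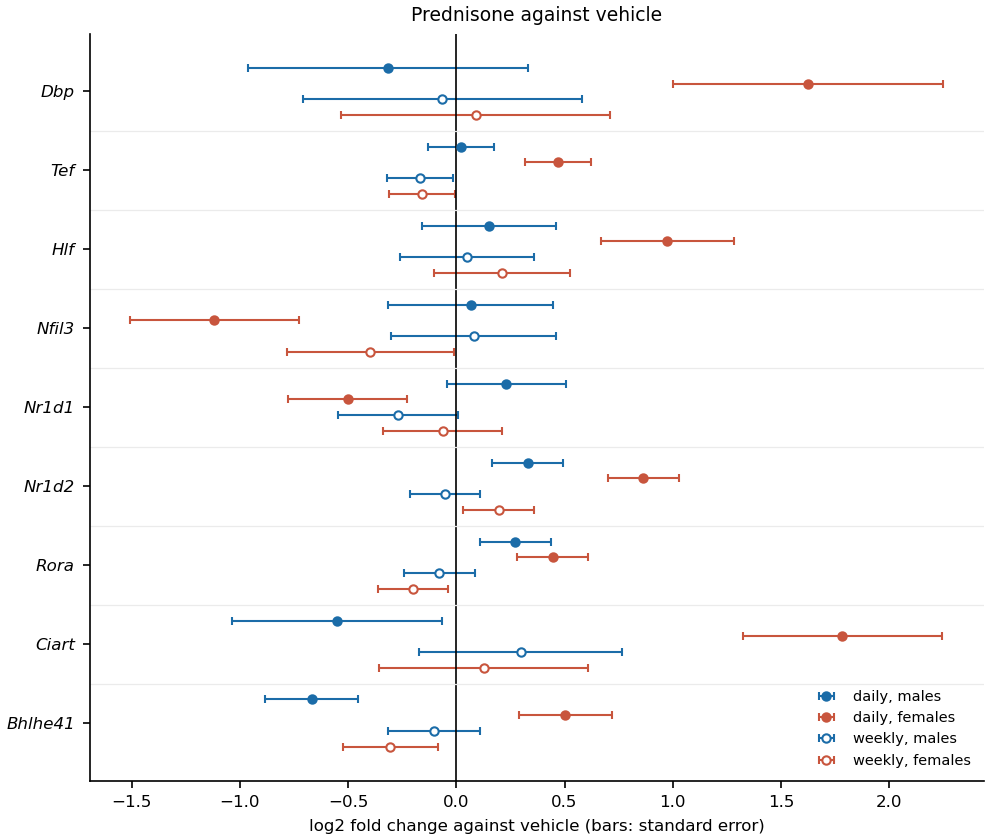
Log2 fold change against vehicle of the same sex (horizontal axis) for each gene, in males and females and for daily (filled) and weekly (open) prednisone, with bars of 1 standard error. Daily females reached 1.78 for Ciart, 1.62 for Dbp and -1.12 for Nfil3, while the daily male values lay between -0.67 and 0.33 and the weekly values between -0.40 and 0.30.

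Counts of members called, at an adjusted p under 0.05 in edgeR over all 13596 genes, are set beside the share of all genes called, and nothing is read from them because the choice of the genes used these contrasts. In daily against vehicle females 1 of 9 members was called, Nr1d2, where 0.382% of all genes were called. In males 0 members were called, where 6.46% of all genes were called. At an unadjusted p under 0.05, 8 of 9 members passed in females, beside 2354 of all 13596 genes, and 1 passed in males, beside 3101 of 13596. The male member was Bhlhe41, and DESeq2 called it. In the mean of both sexes Nr1d2 and Rora were called, beside 15% of all genes. Rora was no longer called with DESeq2 size factors, with the replicate number as a block, without any 1 of 6 libraries, or with an adipocyte score, where its log2 fold change was 0.15, and Nr1d2 was lost with the adipocyte score. In daily against weekly prednisone, over both sexes, Nr1d2, Rora and Tef were called with log2 fold changes of 0.53 ± 0.11, 0.50 ± 0.11 and 0.41 ± 0.11, beside 8.17% of all genes. The median log2 fold change of the 9 members was 0.50 in daily females and 0.07 in daily males, against 0.01 and 0.05 over all genes tested. Daily and vehicle libraries did not overlap for 5 members in females (Dbp, Tef, Nr1d2, Rora and Ciart), beside 23.1% of all genes, and for 2 members in males (Ciart and Bhlhe41), beside 33.4% of all genes.

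With weekly prednisone no member was called. The call was made for 0% of all genes in males, in females and in the mean of both sexes. At an unadjusted p under 0.05, 777 of 13596 genes passed in males and 1083 in females, and 0 members were among either. The DESeq2 test also called 0 members. Member log2 fold changes ran from -0.27 to 0.30 in males and from -0.40 to 0.21 in females. With 1 library left out, the female values ran from -0.42 to 1.56 for Dbp and from -0.043 to 0.67 for Hlf. The highest, 1.56 ± 0.48 and 0.67 ± 0.31, were without the third vehicle female. Weekly and vehicle libraries overlapped for all 9 members in both sexes, while they did not overlap for 16.7% of all genes in males and 8.07% in females.

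Markers of some other cell types differed in range between groups, and those of others overlapped. The 10 adipocyte markers, such as Adipoq and Plin1, summed to 716 to 804 CPM in vehicle females, 955 to 5784 in weekly females and 1178 to 3454 in daily females, and to 355 to 642, 729 to 1262 and 702 to 1571 CPM in males in the same order. None was at 0 in any group. Vehicle and daily sums did not overlap in either sex, so an adipocyte score cannot be fully told apart from daily treatment. The 6 macrophage markers summed to 35.7 to 49.9 CPM in weekly females and 20.1 to 33.1 CPM in vehicle females, and the 5 endothelial markers to 466 to 771 CPM in daily females and 772 to 805 CPM in vehicle females. With an adipocyte score of each library as a covariate, the log2 fold change of Nr1d2 in daily females was 0.75 and that of Rora 0.20, while Dbp had 2.005 and Ciart 1.79, and 0 members were called in that contrast. The 4 blood markers summed to 58.2 to 74.0 CPM in daily females and 82.7 to 147 CPM in vehicle females. In males the macrophage, endothelial and blood ranges with weekly and daily prednisone overlapped vehicle. Daily and vehicle females overlapped for fibroblast markers (711 to 1623 and 1072 to 2342 CPM) and Schwann markers (111 to 200 and 117 to 223 CPM). The 6 slow fiber markers reached 1685 CPM in weekly females (median 31.1) and 320 CPM in weekly males (median 15.7). With vehicle they reached 16.9 and 20.1 CPM. The part of the macrophage, endothelial, blood, fibroblast, Schwann and slow fiber markers in the results was not tested.

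Females and males were set side by side within each treatment. With vehicle, Bhlhe41 was lower in every female (13.9 to 27.3 CPM) than in any male (32.9 to 54.0 CPM), and it was the only member called. Its log2 fold change, female over male, was -1.07 ± 0.22, where 0.765% of all genes were called. The call was lost when any 1 of 4 libraries was left out (male vehicle 1 or 2, or female vehicle 1 or 2), with the difference then between -0.84 and -1.11, with the replicate number as a block, and in a fit of the vehicle groups alone. Nr1d1 was the only other member without overlap, with 137 to 236 CPM in females and 105 to 126 CPM in males, and its log2 fold change of 0.58 ± 0.28 was not called. The 2 members without overlap stand beside 18.9% of all genes without overlap. The other 7 had overlapping libraries.

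Weekly libraries, compared in the same way after the vehicle result was seen, also had lower Bhlhe41 in females. It measured 15.01, 15.99 and 17.7 CPM in weekly females and 44.8, 42.4 and 30.5 CPM in weekly males, a log2 fold change of -1.27 ± 0.22, and again it was the only member called, beside 0.765% of all genes. It stayed called without any 1 of the weekly libraries, between -1.17 and -1.44 on the log2 scale, but not in a fit of the weekly groups alone. Nr1d1 again did not overlap, with 136 to 218 CPM in females and 82.9 to 129 CPM in males, at 0.78 ± 0.28, and was not called. These 2 members without overlap stand beside 14.7% of all genes.

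With daily prednisone, Dbp had a mean of 68.5 ± 10.5 CPM in daily females and 10.2 ± 1.75 CPM in daily males, a log2 fold change, female over male, of 2.75 ± 0.66. Ciart had 9.04 ± 1.65 and 2.13 ± 0.15 CPM, at 2.08 ± 0.46, and was the 1 member called, beside 0.802% of all genes. That call was lost without any 1 of the 6 daily libraries, with no filter on low counts and with the adipocyte score, while DESeq2, the replicate block and a fit of the daily groups alone each called Ciart, Dbp and Nfil3. Nfil3 had 27.7 ± 4.94 and 83.5 ± 17.02 CPM, at -1.59 ± 0.39. Daily females and males did not overlap for 5 members (Dbp, Tef, Nfil3, Nr1d2 and Ciart), beside 16.4% of all genes. Bhlhe41, the only member called between the sexes with vehicle, differed by 0.10 ± 0.21.

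**Figure D3:**
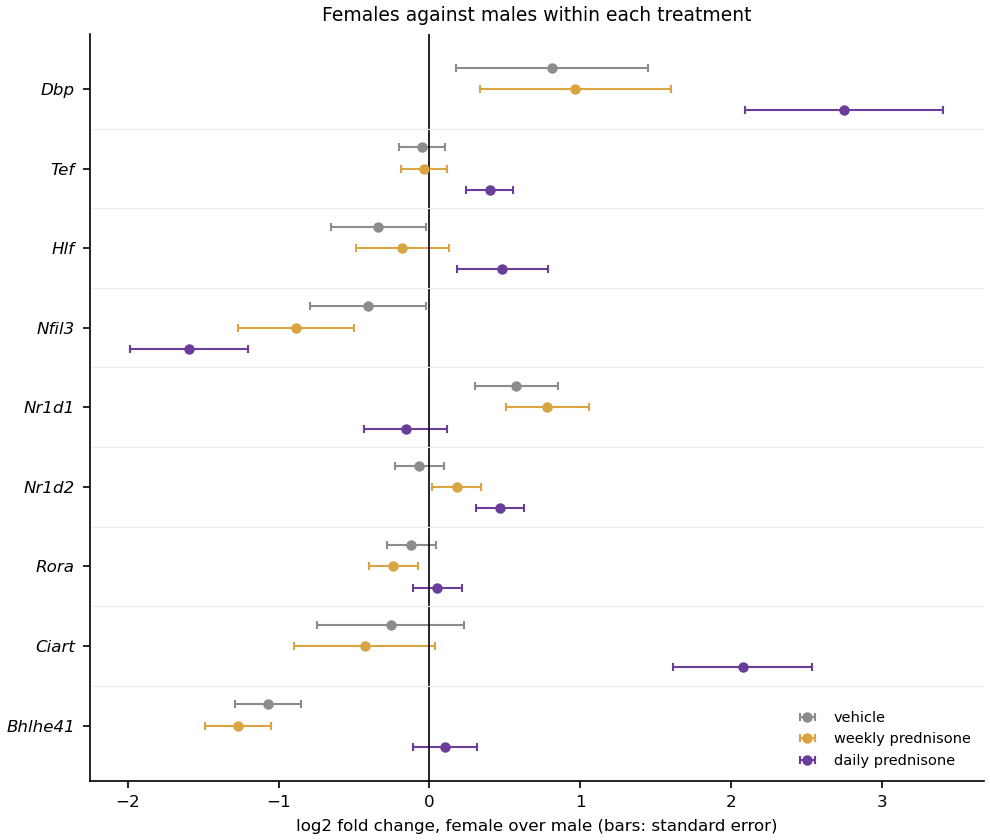
Log2 fold change of females over males (horizontal axis) for each gene within vehicle, weekly and daily prednisone, with bars of 1 standard error. Bhlhe41 lay at -1.07 with vehicle and -1.27 with weekly prednisone and at 0.10 with daily prednisone, while Dbp reached 2.75 and Ciart 2.08 with daily prednisone.

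The female response to daily prednisone minus the male response was 2.33 ± 0.67 for Ciart, 1.94 ± 0.90 for Dbp, 1.17 ± 0.30 for Bhlhe41 and 0.54 ± 0.23 for Nr1d2 on the log2 scale, and -1.18 ± 0.54 for Nfil3. In the fit over all genes this difference between the sexes was called for 0% of genes, members included, while 638 genes, 5 members among them, had an unadjusted p under 0.05, and DESeq2 called 0 members. The difference of the weekly responses was likewise called for 0% of genes, with 357 genes and 0 members at an unadjusted p under 0.05, and the members ran from -0.48 to 0.25.

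Within groups, the members varied very unequally. The SD of log2 CPM around the group means was 0.85 for Dbp, at the 96.9th percentile of all genes tested, 0.66 for Ciart, at the 91.9th, and 0.54 for Nfil3, at the 84.6th. The median over all genes was 0.28. Tef, at 0.18, lay at the 19.3rd percentile, and Nr1d2 and Rora had 0.20 each. Dbp deviated most in the vehicle females numbered 1 and 3, by -1.71 and 1.87. All other libraries lay between -0.76 and 0.65 for Dbp. Dbp and Ciart, which had the widest range across the series, were also the members with the most spread inside a group. The range includes the spread inside groups, so these measures are not independent. The percentiles compare genes of all depths, and Ciart was the shallowest member.

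In 2 of 36 pairs of members, part of this variation was shared. How often pairs of other genes share as much was not tested. After the group mean was removed, Dbp and Nfil3 deviated in opposite directions over the 18 libraries (Pearson r = -0.844, exact permutation p = 0.00105, adjusted p = 0.0378 over 36 pairs). Spearman's rho was -0.831 (exact permutation p = 0.00189, adjusted p = 0.0374). Dbp and Nr1d2 deviated together (r = 0.755, exact permutation p = 0.00244, adjusted p = 0.0440; rho = 0.761, exact permutation p = 0.00208, adjusted p = 0.0374). The tests were two-sided and permuted libraries within their groups over all 46656 orders. Leaving out the 2 libraries farthest from the median of Dbp, the vehicle females numbered 1 and 3, gave r = -0.750 and 0.601. Neither pair was then called. That leaves 1 vehicle female, which cannot deviate from its own mean, and fewer orders to permute. The lost calls therefore do not show whether the correlations rest on those 2 libraries. Same-numbered weekly and daily females deviated together over all genes (r = 0.439 to 0.501), while the permutation treats groups as independent. The other 34 pairs were not called, among them Nfil3 with Nr1d2 (r = -0.751, exact permutation p = 0.00971, adjusted p = 0.0914) and Nr1d1 with Rora (r = 0.721, exact permutation p = 0.0102, adjusted p = 0.0914). Genes outside the list, picked for their likeness to a member, had within-group r of like size in places. Gsk3b had 0.946 with Rora and Sp3os 0.818 with Dbp, while Cul9 had 0.547 with Tef.

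**Figure D4:**
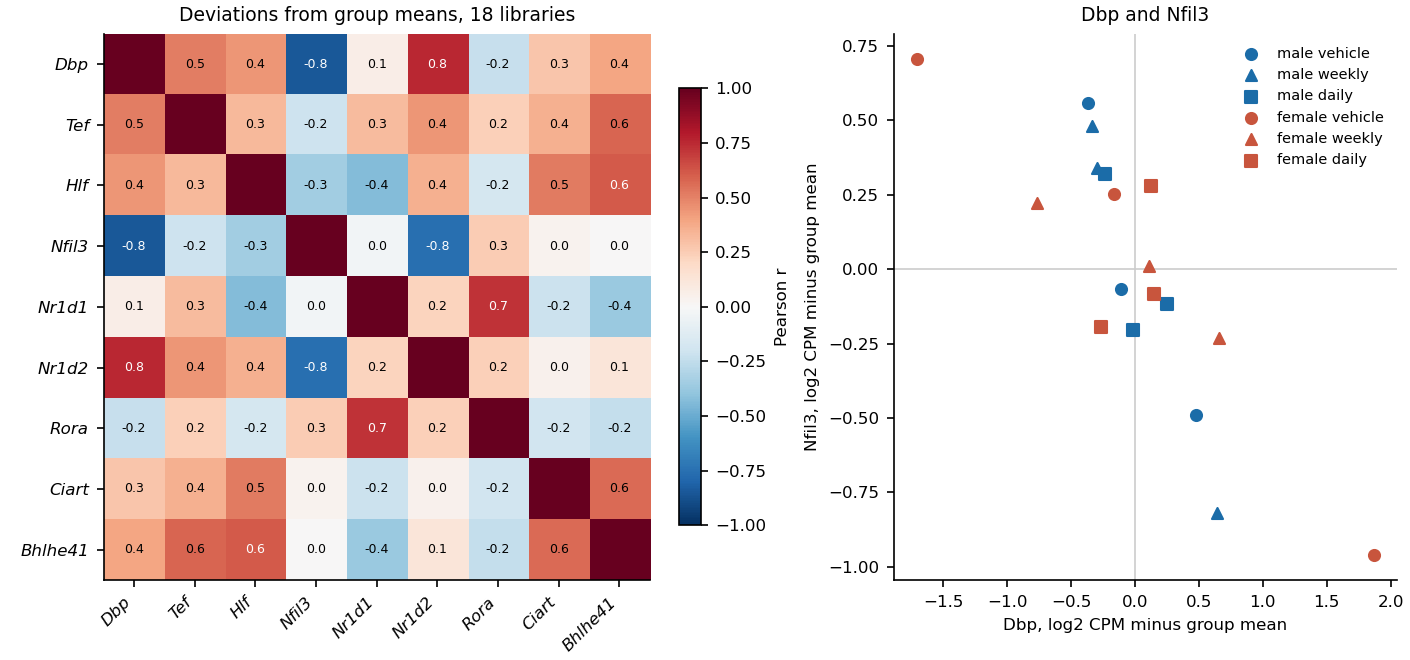
Left, Pearson r between members over 18 libraries after removal of the group mean (color scale from -1 to 1, rounded values in the cells). Right, deviation of Nfil3 (vertical) against that of Dbp (horizontal) in log2 CPM, with 1 point per library, color for sex and marker for treatment: the points run from high Nfil3 with low Dbp to low Nfil3 with high Dbp, r = -0.844, and the vehicle females numbered 1 and 3 lie at the ends.

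Of 21 other clock genes listed with earlier results known, 19 were tested (Rorb and Fbxl21 were not). In daily against vehicle over both sexes, 3 of the 19 were called, Per2 and Per3 upward and Npas2 downward, beside 15% of all genes, a share near that background. None of the 19 was called with the adipocyte score. Npas2, whose product can replace CLOCK beside BMAL1, had 1.38, 0.566 and 0.725 CPM in daily females and 5.76, 4.24 and 4.48 CPM in vehicle females, a log2 fold change of -2.46 ± 0.38. It was the 1 gene of the 19 called in daily females, beside 0.382% of all genes. Per3 had 27.0, 36.3 and 36.7 CPM in daily females and 4.32, 8.69 and 20.8 CPM in vehicle females, so the third vehicle female, highest in Dbp, was also highest in Per3.

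The core genes are placed beside the members by the correlation of their within-group deviations over the 18 libraries; both genes of a pair share library and depth. Dbp had r = 0.824 with Per3, -0.637 with Arntl and -0.641 with Cry1, and Nfil3 had 0.778 with Cry1 and 0.689 with Arntl. Ciart ran with Per1 (0.809), Cry2 (0.787) and Per2 (0.736), and Hlf with Per2 (0.795). Rora had 0.686 with Clock. These were picked from 72 such values after they were seen, and others lay near 0, among them Tef with Arntl (0.00), Nfil3 with Per1 (-0.07) and Tef with Per2 (0.12).

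Tested genes outside the member list were ranked by their likeness to each member in log2 CPM. The ranking used all 18 libraries, group differences included, and the members themselves were not ranked. The gene most like Dbp was Per3 (r = 0.862), followed by Mamstr (0.839) and Sp3os (0.797). Those most opposed were Arntl (-0.822), Mettl8 (-0.771) and Tead4 (-0.762). The gene most like Nr1d1 was Mettl17 (0.875), followed by Ypel3 (0.809) and Rab11b (0.789), and the most opposed were Lancl3 (-0.879), Itgb6 (-0.794) and Ppm1n (-0.781). For the others it was Cul9 for Tef (0.826), Per2 for Hlf (0.866), Parvb for Nfil3 (0.830), Dhx36 for Nr1d2 (0.841), Gsk3b for Rora (0.933), Tob2 for Ciart (0.905) and Ky for Bhlhe41 (0.911). In this ranking without the members, core clock genes came first for Dbp and Hlf and not for the other 7 members.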

How the data were processed

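RNA was sequenced from isolated quadriceps myofibers, and the authors deposited unnormalized counts of reads for each gene. The submitters' processing notes name TopHat2 2.1.0, Bowtie2 2.2.6, HTSeq and the builds mm10 and mm9; the study's methods state mm10. The strand setting is not given in the sources used here.

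Counts were tested with edgeR 4.0.16 (R 4.3.3): filterByExpr with a minimum count of 10, TMM factors, and a robust quasi-likelihood fit of 6 group means, with Benjamini-Hochberg adjustment over 13596 genes. CPM are scaled by TMM. Alternatives were DESeq2 1.42.0, its size factors, other filters, a replicate block, an adipocyte score, the compared groups alone, and each library left out. Steps were tested on simulated data. Correlations used exact permutation within groups, on log2 CPM with a prior count of 2.

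The members and gene lists were chosen with earlier results of these data known. Named were all 9 members, the core loop and any other listed clock gene called, and the genes most alike by r. In the ranking by r, the members and gene models without a name were passed over. The study states 3 animals per group for its RNA sequencing. The labels number replicates 1 to 3 without saying what a number marks across groups. All p-values rest on variation between these libraries.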

Additional observations from a re-analysis of the deposited data

Results flagged for a closer look

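For 3 members every daily female library lay above the vehicle mean of its sex and every daily male library lay below it. The female minus male log2 fold change was 1.94 ± 0.90 for Dbp, 2.33 ± 0.67 for Ciart and 1.17 ± 0.30 for Bhlhe41. Without 1 library the Dbp value ran from 1.42 to 3.41, the highest without female vehicle replicate 3. The interaction was fitted over all 13596 genes with edgeR and called for 0 of them, so the difference between the sexes was not established for these members, and the genes were chosen with the daily contrasts known.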

How the results depend on the processing

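In daily against vehicle males the count of members called went from 0 to 1 (Bhlhe41) with the DESeq2 test and to 1 with the compared groups alone. In daily females it went from 1 to 2 with DESeq2 and to 0 with the adipocyte score or the compared groups alone, and it ran from 0 to 2 without 1 library: 0 without female vehicle replicate 1 or 2 or female daily replicate 2 or 3, and 2 without female vehicle replicate 3. For the mean of both sexes it went from 2 to 1 (Rora lost) with DESeq2 size factors, 1 with the replicate block and 0 with the adipocyte score, and ran from 1 to 3 without 1 library, while daily against weekly ran from 2 to 3. In female against male vehicle libraries it went from 1 to 0 with the replicate block or the compared groups alone, and ran from 0 to 1 without 1 library. In weekly libraries it was 0 with the compared groups alone. In daily libraries it went from 1 to 3 (Ciart, Dbp and Nfil3) with DESeq2, the replicate block or the compared groups alone, and to 0 with no filter, with the adipocyte score or without any 1 library. The other clock genes called went from 3 to 0 with the adipocyte score and ran from 2 to 4 without 1 library. Pairs called went from 2 to 0 without the 2 farthest libraries, a choice that differed with the first member of the pair. The cause of these changes was not tested.

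The correlation of deviations between same-numbered libraries exceeded 0.1 throughout in 1 of 15 pairs of groups, weekly and daily females (0.439 to 0.501), and ran from -0.503 to 0.501 over all. With the replicate block, 3 members were still called in daily against weekly, the same genes. The female over male comparisons of weekly and daily libraries, and the count of other clock genes, were added after the data were seen.

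Some sex differences that were not called changed sign. Rora in daily libraries was -0.056 with the adipocyte score. Without 1 library, female over male ran from -0.66 to 1.32 for Dbp, -0.16 to 0.11 for Tef, -0.23 to 0.066 for Nr1d2 and -0.44 to 0.035 for Ciart with vehicle, from -0.42 to 0.049 for Hlf and -0.82 to 0.030 for Ciart with weekly prednisone, and from -0.51 to 0.073 for Nr1d1 and -0.057 to 0.17 for Rora with daily prednisone. The difference of the weekly responses ran from -0.35 to 1.63 for Dbp, -0.16 to 0.11 for Tef, -0.095 to 0.61 for Hlf, -0.014 to 0.45 for Nr1d1, -0.57 to 0.29 for Ciart and -0.44 to 0.078 for Bhlhe41. Ciart had as few as 13 counts in a library, which limits its precision.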
